A study of Mus musculus with 6 samples.

Results

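The insulin-like growth factor (IGF) axis was followed through the liver cells of mice labelled as having nonalcoholic steatohepatitis (NASH). The 10 genes described were chosen by symbol: the ligand Igf1, the receptors Igf1r and Igf2r, and the binding-protein genes Igfbp1, Igfbp2, Igfbp3, Igfbp4, Igfbp5, Igfbp6 and Igfbp7. All 10 were found among the 19349 genes of the tables. The male C57BL/6J mice were bought at 8 weeks of age and ate a high-fat diet for 24 weeks, and in the last 8 weeks they received by gavage either the DMSO vehicle (3 libraries) or the biflavone ginkgetin from plants, 10 mg/kg each day (3 libraries). Both groups therefore share the diet, and no chow-fed library was analysed here. The non-parenchymal fraction of liver went into droplets for RNA sequencing of single cells, where a unique molecular identifier (UMI) marks each captured RNA molecule. The labels do not say whether a library held 1 animal or several, so p-values measure the spread between libraries only.

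IGF1 is a secreted hormone of the liver that growth hormone induces, and it acts by binding IGF1R, a receptor tyrosine kinase that signals through the insulin receptor substrates, PI3K and AKT. IGF2R is the cation-independent mannose 6-phosphate receptor, which clears IGF2 and carries lysosomal enzymes to lysosomes. The IGF-binding proteins hold IGFs in the circulation and the matrix and are cut by proteases such as PAPP-A, and IGFBP7 differs from the others in its low affinity for IGFs. In liver, hepatocytes are known as the main source of circulating IGF1, and macrophages as a local one.

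In the GRCm38 mouse genome (GENCODE M21), Igf1 spans bases 87858265 to 87937042 of chromosome 10, Igf1r spans 67952827 to 68233668 of chromosome 7, and Igf2r spans 12682406 to 12769664 of chromosome 17. The 7 binding-protein genes include neighbouring pairs. Igfbp2 (72824503 to 72852474) and Igfbp5 (72857932 to 72874884) lie on chromosome 1 with 5457 bases between them and are transcribed towards each other. Igfbp1 (7197782 to 7202546) and Igfbp3 (7206086 to 7213923) lie on chromosome 11 with 3539 bases between them, also transcribed towards each other. Igfbp4 (chromosome 11, 99041244 to 99054392), Igfbp6 (chromosome 15, 102144362 to 102149511) and Igfbp7 (chromosome 5, 77349240 to 77408041) have no other member beside them. Igf2r overlaps the antisense gene Airn, Igf1 overlaps Igf1os, and Igfbp7 overlaps Polr2b and Gm34648 on the other strand, so counts of these 3 genes could hold reads of the partner where counting ignored strand, which is not given in the sources used here.

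The 250 bases before the RefSeq start of Igfbp3, Igfbp4 and Igfbp7 (GRCm38.p6) are shown because these binding-protein genes had the highest levels in stellate-like or endothelial-like cells. Each is written 5′ to 3′ on the gene's strand, and capitals mark the letters TATAAA (the TATA-box core) or GGGCGG (a GC box), searched on both strands together with CCGGAAG (an ETS core) and TGACTCA (an AP-1 site).
Igfbp3 (chr11:7213924-7214173, minus strand): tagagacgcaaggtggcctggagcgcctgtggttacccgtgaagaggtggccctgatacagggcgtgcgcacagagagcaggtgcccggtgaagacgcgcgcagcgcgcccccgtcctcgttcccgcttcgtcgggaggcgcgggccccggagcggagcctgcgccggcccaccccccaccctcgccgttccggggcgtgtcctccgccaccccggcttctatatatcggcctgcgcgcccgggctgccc
Igfbp4 (chr11:99040994-99041243, plus strand): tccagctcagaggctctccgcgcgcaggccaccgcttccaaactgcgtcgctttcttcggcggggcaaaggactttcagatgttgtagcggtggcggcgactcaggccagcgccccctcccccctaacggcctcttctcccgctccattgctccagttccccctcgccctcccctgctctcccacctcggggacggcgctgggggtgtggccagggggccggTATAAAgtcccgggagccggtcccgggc
Igfbp7 (chr5:77408046-77408295, minus strand): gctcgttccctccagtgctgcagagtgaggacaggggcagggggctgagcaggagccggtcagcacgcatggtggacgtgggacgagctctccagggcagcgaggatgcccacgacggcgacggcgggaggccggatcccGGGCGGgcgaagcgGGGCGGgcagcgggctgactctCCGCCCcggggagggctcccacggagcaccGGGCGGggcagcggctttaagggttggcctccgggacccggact
The Igfbp4 window held 1 TATAAA and no GGGCGG, that of Igfbp7 held 4 GGGCGG and no TATAAA, and that of Igfbp3 held neither. Among 32851 windows of this length, 12.4% held TATAAA, 32.7% GGGCGG, 6.91% CCGGAAG and 4.46% TGACTCA, and neither of the last pair was in any of the 10 members' windows. A match describes the letters only.

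Deposited libraries held 3577 to 8119 barcodes and 13128697 to 61796882 UMIs. Of 33168 barcodes, 27544 passed the cell filter, and 12801 of those were named endothelial-like, macrophage-like, stellate-like, cholangiocyte-like or hepatocyte-like from marker genes. Replicate 3 of both groups stood apart, since it used another set of cell barcodes and 2253 genes had UMIs only there, but none of the 10 IGF genes was at 0 in either set. Another 1737 cells stayed unnamed, among them 678 endothelial cells led by Edn1, Vwf and Gja5. No pair of libraries shared more than 85 barcodes. The defining markers were present: summed levels, given as CPM (UMIs scaled to a fixed total for each class and library) of the class's own list were 8867 or more in endothelial-like, macrophage-like, stellate-like, cholangiocyte-like and hepatocyte-like cells of every library that held them. Fibroblast-like cells held 1575 to 6619 CPM of their own markers and 6518 to 15192 CPM of the stellate markers. Cholangiocyte-like cells held 40144, 32041 and 26957 CPM of their own markers in vehicle and 19879, 17464 and 21005 CPM in ginkgetin, without overlap, and 5771 to 13683 CPM of the hepatocyte markers.

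The ligand Igf1 was highest in macrophage-like and hepatocyte-like cells, whose ranges overlapped. Macrophage-like cells carried 84.2% of all 23235 Igf1 UMIs in the kept cells. In the vehicle libraries their Igf1 level was 526, 529.5 and 419 CPM, and in the ginkgetin libraries 384, 349.8 and 565 CPM. These groups overlapped, with ginkgetin replicate 3 the highest of all 6. Hepatocyte-like cells held 587, 562 and 365 CPM in vehicle and 486 and 308 CPM in ginkgetin replicates 2 and 3, again with overlap, and ginkgetin replicate 1 gave no hepatocyte-like cell. Hepatocyte-like cells were few in this non-parenchymal preparation (0 to 226 per library), so their share of the Igf1 UMIs, 4.18%, does not describe the liver. Within macrophage-like cells, the Kupffer-like part, the resident macrophages, held 723, 706 and 576 CPM in vehicle and 704 and 636 CPM in ginkgetin replicates 2 and 3 (440 CPM from 15 UMIs of 8 cells in ginkgetin replicate 1), and the Trem2-high part held 371, 459 and 314 CPM against 259, 353 and 213 CPM, the ginkgetin values there resting on 13, 7 and 36 cells. B cell-like cells held 2.61 to 6.17 CPM.

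The receptor Igf1r was an endothelial, biliary and mesenchymal transcript: its mean level over libraries was 117 ± 32.8 CPM (SD, n = 6) in endothelial-like, 103 ± 58.2 (n = 6) in cholangiocyte-like, 100.3 ± 39.1 (n = 5) in stellate-like and 99.7 ± 35.9 (n = 5) in fibroblast-like cells, a run of classes whose ranges overlapped. Macrophage-like cells stood below all of them at 6.01 ± 4.29 CPM (n = 6), and hepatocyte-like cells at 3.92 ± 5.40 CPM (n = 5) overlapped with these. Endothelial-like cells carried 64.4% of the 5085 Igf1r UMIs. Among the 6 classes compared, the receptor Igf2r ranged from 11.5 ± 5.25 CPM in endothelial-like cells (n = 6) to 57.5 ± 40.9 in fibroblast-like cells (n = 5), and every neighbour in that order overlapped with the next, while NK cell-like cells outside the 6 held 12.7 to 86.1 CPM.

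Igfbp3, which carries most circulating IGF, was a stellate-like gene: 964 and 364 CPM in vehicle replicates 2 and 3 and 622, 488 and 594 CPM in the ginkgetin libraries, against at most 72.9 CPM in fibroblast-like libraries with at least 10 cells, next in order and apart from them. Igfbp6, which prefers IGF2, was a fibroblast-like gene at 2447 ± 1078 CPM (SD, n = 5), and the next of the 6 classes compared, stellate-like cells, stood apart at 3.56 ± 4.94 CPM (n = 5). Igfbp5, the most conserved of the family, stood at 3394 ± 1088 CPM (n = 5) in fibroblast-like cells and at 83.4 ± 92.9 CPM (n = 6) in endothelial-like cells. Igfbp5 and Igfbp6 were among the genes leading the fibroblast-like cluster, so that these levels describe the cluster and test nothing. With no cell filter, the cluster of that name was led by Igfbp6, Igfbp5, Upk3b and Slpi, with Msln also among its leading genes. Whether the class was a single cell type was not tested. Igfbp2, the neighbour of Igfbp5, lay mainly in hepatocyte-like cells.

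Igfbp4 was highest in endothelial-like cells at 1709.7 ± 244 CPM (SD, n = 6), which overlapped with fibroblast-like cells at 1581 ± 621 CPM (n = 5), and both stood apart from stellate-like cells at 668 ± 182 CPM (n = 5). Igfbp7 was highest in stellate-like cells at 10259.6 ± 3818 CPM (n = 5), followed by endothelial-like cells at 3972 ± 1523 CPM (n = 6). Endothelial-like cells, being many, nevertheless carried 73.9% of its UMIs. Few UMIs came from the genes highest in hepatocyte-like cells: Igfbp2 had 246 UMIs in all kept cells, 70.7% of them in hepatocyte-like cells, and Igfbp1, a gene induced by fasting, had 92 UMIs, of which 46 lay there. In hepatocyte-like cells Igfbp2 stood at 70.4, 59.3 and 82.8 CPM in vehicle and at 24.3 and 82.8 CPM in ginkgetin, the 24.3 being 1 UMI. Igfbp1 stood there at 4.69, 9.89 and 32.8 CPM in vehicle and at 0 and 5.18 CPM in ginkgetin, the 0 allowing up to 72.9 CPM. Stellate-like cells held no UMI of Igfbp1 or Igfbp2 in any library, which with the floor of 3 counts allows 6.95 CPM in the deepest of them. Limits and floors of this kind cover counting error only.

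**Figure D1:**
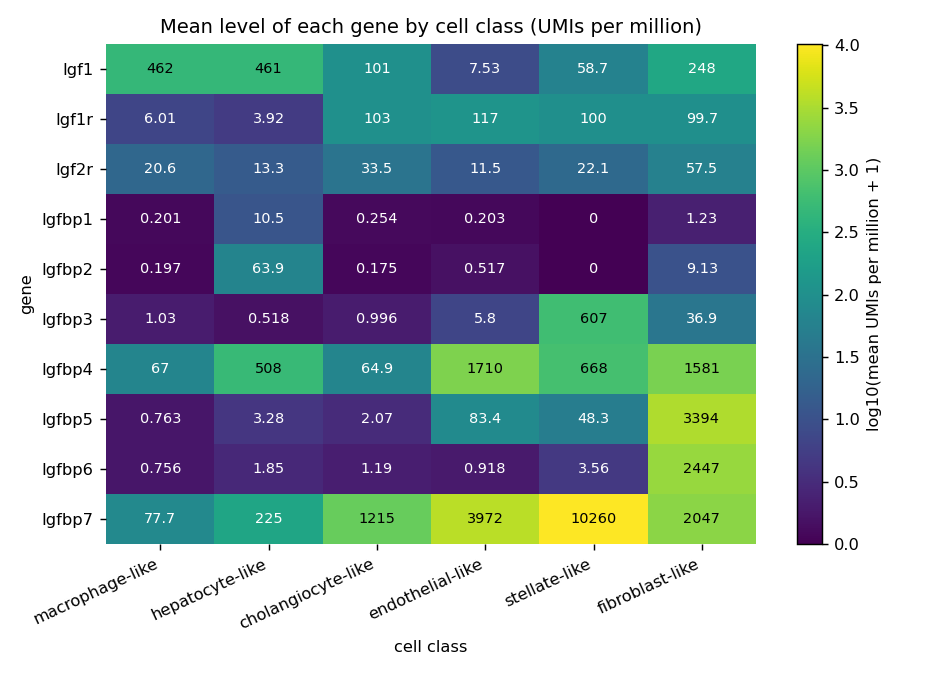
Mean level of each of the 10 genes (rows) in 6 cell classes (columns), in CPM over libraries with at least 10 cells of the class, with colour on a log10 scale. Reading along a row, Igfbp3 is highest in stellate-like cells (607), Igfbp6 in fibroblast-like cells (2447), and Igf1 in macrophage-like and hepatocyte-like cells (462 and 461); levels of different genes are not compared.

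The genes most like each member over 69 sums (12 named classes by library, genes with at least 50 CPM in some class) were ranked by Pearson r of log2(CPM + 1), as a description, since sums from 1 library share its depth and its background RNA. Igfbp7 was most like Sparc (r = 0.98), Nr2f2 (r = 0.95) and Bgn (r = 0.94), which are matrix genes and a venous transcription factor. Igfbp3 was most like Adcy5 (r = 0.94), Adcyap1r1 (r = 0.94) and Fbln7 (r = 0.94), Igfbp4 like Ltbp4, Gstm2 and Mgll (r = 0.91, 0.91 and 0.90), and Igfbp5 like Sulf1, Cldn15 and Sfrp1 (r = 0.90, 0.89 and 0.88). Igf1 was most like Hebp1 and Apoe (r = 0.86 and 0.82), Igf1r like Auts2, Spats2l and Ctgf (r = 0.89, 0.87 and 0.86), Igf2r like Os9, Dnajc1 and Ssbp3 (r = 0.74, 0.71 and 0.71), Igfbp2 like 1300017J02Rik, Aox3 and Adh1 (r = 0.87, 0.86 and 0.86), and Igfbp6 like Upk1b, Atp6v0a4 and Fibin (r = 0.91, 0.91 and 0.91).

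For vehicle against ginkgetin, UMIs were summed per class and library and fitted with edgeR across all genes. A call required a fold above 2 and, after Benjamini-Hochberg adjustment over all genes, p under 0.05. In macrophage-like cells 5 of the 10 genes had enough counts to be tested and 2 were called, 1 higher and 1 lower, where 8.3% of all genes tested were called (4.64% higher and 3.66% lower). At an unadjusted p under 0.05 there were 5 of the 5 tested, and 29.9% of all genes. The other 5 of the 10 genes had too few counts. With 2 calls among 5 genes, this count is too small to set against the background. In Kupffer-like cells 4 were tested and edgeR called none, with 1 at an unadjusted p under 0.05, where 0.0% of all 9545 genes tested were called (1258 at an unadjusted p under 0.05). DESeq2 and limma also called none of the 4, though DESeq2 gave an adjusted p for Igf1 alone.

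Igf2r and Igfbp4 were the genes called in macrophage-like cells. Igf2r stood at 20.5, 22.1 and 32.9 CPM in the vehicle libraries and at 11.9, 14.3 and 22.1 CPM in the ginkgetin libraries, so ginkgetin replicate 3 exceeded vehicle replicate 1. The fitted log2 fold change was −1.05 ± 0.25 (SE) with an edgeR adjusted p of 0.0447. Scaled by library totals alone in place of TMM factors, it was −0.57 with an edgeR adjusted p of 0.269, in a range of 0.00500 to 0.378 over all alternatives. Igfbp4 stood at 17.3, 28.9 and 22.3 CPM in vehicle and at 74.0, 183 and 76.2 CPM in ginkgetin, without overlap, and changed by 1.87 ± 0.43 on the log2 scale (edgeR adjusted p = 0.0416). Leaving out any 1 of the 6 libraries ended both calls, with edgeR adjusted p between 0.0652 and 0.196 for Igfbp4 and between 0.0725 and 0.178 for Igf2r, and log2 fold changes between 1.27 and 2.14 and between −1.26 and −0.84. Those fits called 0 of all genes, other than the fit without vehicle replicate 3, which called 6.76% of all genes. Clustered on their own, the macrophage-like cells included a part with genes of sinusoidal endothelium (Aqp1, Ptprb, Ehd3, Igfbp7, Kdr) among its 10 leading genes. It also had Jchain, Cxcl13 and Cd163 among these, and 5 of the 7 Kupffer markers were detected in it. It held 81 of the 115 macrophage-like cells of ginkgetin replicate 1 and 236 of the 259 of replicate 2, but 4 to 9 cells of each other library. Without that part neither gene was called, at 1.78 for Igfbp4 (edgeR adjusted p = 0.170) and −1.18 for Igf2r (edgeR adjusted p = 0.378), and 10 of all 9724 genes tested were called.

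Few cells of ginkgetin replicates 1 and 2 were named Kupffer-like, because the part led by endothelial genes was set aside by the naming rule. That part had 5 of the 7 Kupffer markers detected. The cells named Kupffer-like numbered 655, 361 and 382 in vehicle and 8, 11 and 506 in ginkgetin, so that the fit compared 3 libraries with ginkgetin replicates 2 and 3. Igfbp4 stood at 9.37, 16.8 and 9.59 CPM in vehicle, and at 162 CPM from 3 UMIs and 71.1 CPM from 122 UMIs in those ginkgetin libraries. The groups did not overlap, but the log2 fold change of 2.21 ± 0.52 (SE) missed the call (edgeR adjusted p = 0.240). Leaving out 1 library moved it between 1.91 and 2.90, and without vehicle replicate 3 it was called (1.92, edgeR adjusted p = 2.88e-06), as were 28.0% of all genes. Igf2r stood at 24.4, 27.2 and 39.5 CPM against 0 and 25.1 CPM, where the 0 allows up to 162 CPM, with a log2 fold change of −0.99 ± 0.51 (edgeR adjusted p = 0.437). With 1 library left out that log2 fold change ran from −10.0 to −0.75. Igf1r rested on 6, 2 and 5 UMIs in vehicle and on 0 and 12 UMIs in ginkgetin and was not tested. With the part led by endothelial genes counted as Kupffer-like, Igf1r (3.12, edgeR adjusted p = 0.0275) and Igfbp4 (2.76, edgeR adjusted p = 0.0354) would be called.

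**Figure D2:**
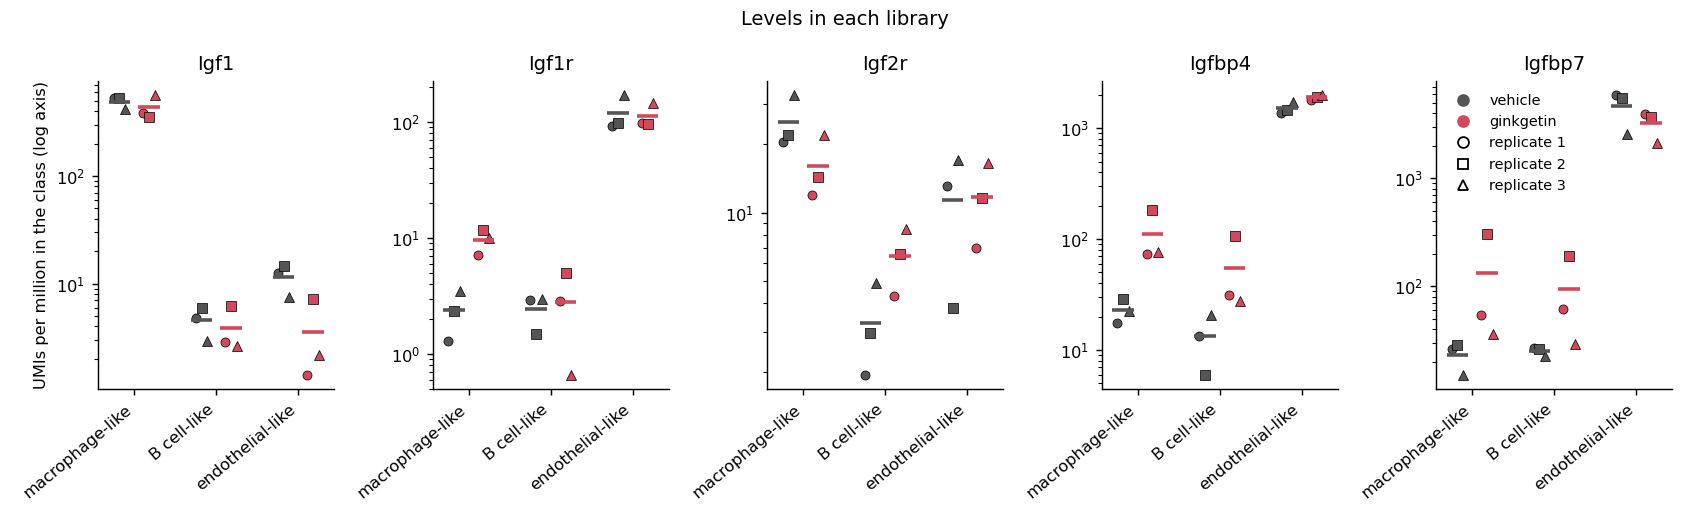
Level of 5 genes (panels) in 3 cell classes, in CPM on a log axis, each point 1 library, colour the group, symbol the replicate and bar the group mean (n = 3). In macrophage-like cells the 3 ginkgetin points of Igfbp4 (74.0 to 183) lie above the 3 vehicle points (17.3 to 28.9), whereas the Igf1 points of the 2 groups overlap.

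Igf1 was not called in macrophage-like cells (log2 fold change −0.64 ± 0.24, edgeR adjusted p = 0.137) or in Kupffer-like cells (−0.76 ± 0.43, edgeR adjusted p = 0.465). Both values rest on the TMM scaling: with library totals alone they were −0.17 (edgeR adjusted p = 0.677) and −0.00061 (edgeR adjusted p = 0.999), and the mean Igf1 level of Kupffer-like cells was 668 ± 80.8 CPM (SD, n = 3) in vehicle and 669.9 ± 47.6 (n = 2) in ginkgetin. Also not called were Igf1r (1.59 ± 0.44, edgeR adjusted p = 0.0644) and Igfbp7 (2.08 ± 0.82, edgeR adjusted p = 0.144) in macrophage-like cells, and Igfbp7 in Kupffer-like cells (0.37 ± 0.74, edgeR adjusted p = 0.854). Igf1r was called with DESeq2 (1.56, adjusted p = 0.0402), with library totals in place of TMM (2.04, edgeR adjusted p = 0.0367) and with no cell filter (1.61, edgeR adjusted p = 0.0468). Igfbp7 was called with DESeq2 (2.04, adjusted p = 0.0315) and in replicates 1 and 2 alone (2.41, edgeR adjusted p = 0.0341). Ginkgetin replicate 2 set the Igfbp7 value of macrophage-like cells: without it the log2 fold change was 0.51. By the check given with the methods, replicate 3 stood apart in both groups, while replicates 1 and 2 were not told apart by number. With the replicate block 4 of 5 genes were called in macrophage-like and 3 of 4 in Kupffer-like cells, where 14.0% and 9.25% of all genes were called with that block. Those added by the block were, in macrophage-like cells, Igf1r (log2 fold change 1.45, edgeR adjusted p = 0.0385) and Igfbp7 (1.57, edgeR adjusted p = 0.0183), and in Kupffer-like cells Igfbp4 (2.45, edgeR adjusted p = 5.50e-12), Igf2r (−1.10, edgeR adjusted p = 0.0260) and Igfbp7 (1.59, edgeR adjusted p = 0.000770). With the barcode-set block, from which the pairing comes, Igf2r in Kupffer-like cells was not called (−1.12, edgeR adjusted p = 0.0580). The replicate block left 1 residual degree of freedom in Kupffer-like cells, and Igfbp7 was itself among the leading genes of the part set aside.

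Macrophage-like cells were fewer and shallower in the ginkgetin libraries, and they came from other clusters. There were 1401, 784 and 1099 in vehicle and 115, 259 and 550 in ginkgetin, with median UMIs per cell of 8443, 7381 and 16281 against 2518, 2109 and 2347. Scaling by totals alone instead of TMM moved the median log2 fold change of all genes in these cells from 0.02 to 0.49, and the share of calls that were higher from 55.9% to 90.2%. In Kupffer-like cells it moved that median from −0.08 to 0.54, with 0 genes called on either scale, and the log2 fold change of Igf2r from −0.99 to −0.39 and that of Igfbp7 from 0.37 to 1.11. The part of these differences in the results above was not tested.

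Endothelial marker RNA in macrophage-like cells was higher in the ginkgetin libraries, as was Igfbp4. The summed level of 8 endothelial markers there was 206, 186 and 186 CPM in vehicle and 809, 1572 and 990.4 CPM in ginkgetin, with none of the 8 at 0 in any library. In Kupffer-like cells it was 307, 319 and 385 CPM in vehicle and 1136.5 and 1146 CPM in ginkgetin replicates 2 and 3. B cell-like cells showed 127, 149 and 153 CPM in vehicle and 259, 1036 and 388 CPM in ginkgetin, and their Igfbp4 went from 13.5, 5.89 and 20.7 CPM to 31.6, 107 and 27.4 CPM. Expressed against the endothelial-like level of the same library, the 8 markers in macrophage-like cells were at 2.32%, 1.91% and 1.66% in vehicle and 6.04%, 11.3% and 5.82% in ginkgetin. Igf1r in these cells was at 1.39%, 2.41% and 2.06% in vehicle and at 7.31%, 12.1% and 6.94% in ginkgetin, and Igfbp4 was at 1.26%, 1.99% and 1.28% in vehicle and at 4.14%, 9.59% and 3.84% in ginkgetin. In the Trem2-high part the 8 markers were at 0.866%, 0.943% and 0.474% in vehicle and 2.16%, 6.34% and 1.01% in ginkgetin. Igfbp4 there was at 2.07%, 2.90% and 1.78% in vehicle and at 9.38%, 6.15% and 5.68% in ginkgetin, the latter from 13, 7 and 36 cells. Igf1r in B cell-like cells, at 2.89, 1.47 and 2.96 CPM in vehicle and 2.87, 4.94 and 0.652 CPM in ginkgetin, overlapped between the groups. Leaving out the 25% of cells with the most marker RNA of other classes kept the Igfbp4 call in macrophage-like cells (1.97, edgeR adjusted p = 0.0454) and ended that of Igf2r (−1.04, edgeR adjusted p = 0.0751). How much of each gene's level came from endothelial RNA was not tested.

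**Figure D3:**
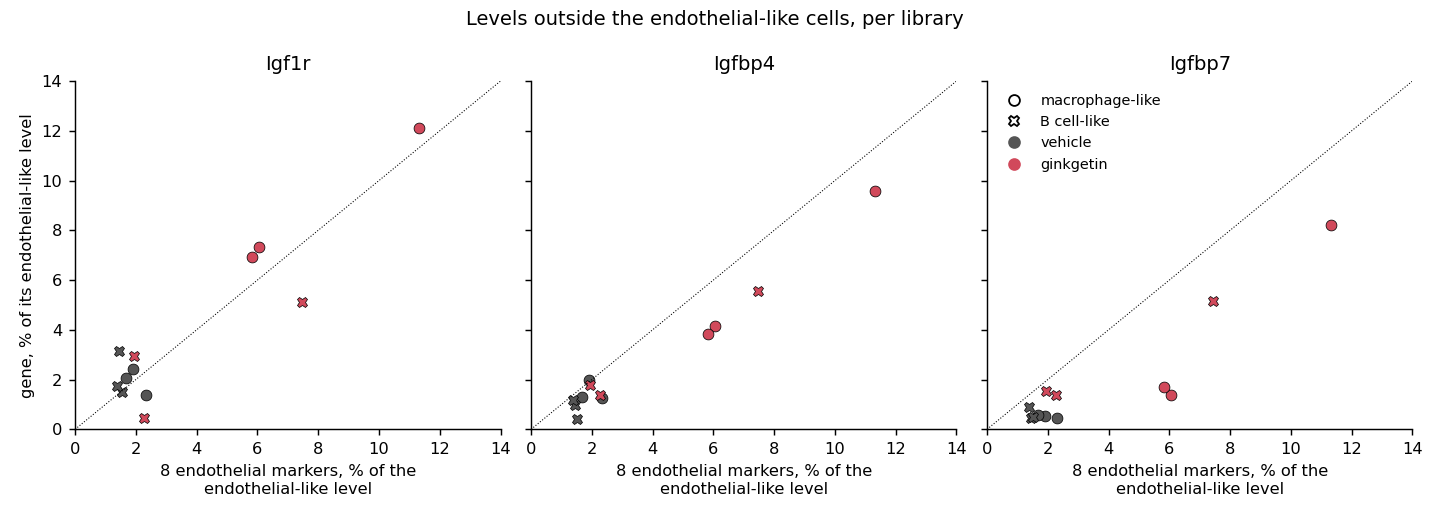
Level of Igf1r, Igfbp4 and Igfbp7 in macrophage-like and B cell-like cells as a percent of the endothelial-like level of the same library (vertical), against the summed level of 8 endothelial markers expressed the same way (horizontal). Each point is 1 class in 1 library and the dotted line marks equal percents; in macrophage-like cells of ginkgetin replicate 2 the markers were at 11.3% and Igf1r at 12.1%.

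Shares of cells with at least 1 UMI were compared after thinning each cell to 1000 UMIs. For Igfbp4 the thinned share was 2.47% ± 0.227 (SD, n = 3) of macrophage-like cells in vehicle and 10.3% ± 6.52 in ginkgetin, and 1.20% ± 0.601 against 5.49% ± 4.47 of B cell-like cells. In Kupffer-like cells (3 libraries against 2, one with 11 cells) it was 1.29% ± 1.31 and 13.2% ± 7.02. Igf1r was found in 0.102% ± 0.176 of thinned Kupffer-like cells in vehicle and 0.446% ± 0.631 in ginkgetin, Igf2r in 2.59% ± 0.678 and 1.78% ± 0.641 of macrophage-like cells, and Igf1 in 33.8% ± 3.61 and 37.2% ± 5.17 of them. In B cell-like cells the Igf1 share was 0.359% ± 0.379 and 0.241% ± 0.230. The two-sided exact permutation test used doubles the smaller one-sided p, so it cannot go below p = 0.1 with 3 libraries against 3 or below 0.2 with 3 against 2. In macrophage-like cells its p-values were 0.1, 0.2 and 0.5 for Igfbp4, Igf2r and Igf1, and in Kupffer-like cells 0.2 and 0.8 for Igfbp4 and Igf1r (0.333 to 0.8 after Benjamini-Hochberg adjustment over the 5 exact tests). Without thinning, the mean Igf1 share was 80.2% in vehicle and 62.9% in ginkgetin in macrophage-like cells, whose depth also differed between the groups, and the Igfbp4 share was 17.6% and 28.6%. In B cell-like cells, with median depths of 1877.5 to 3705 UMIs, the unthinned Igfbp4 share was 3.70% and 12.4%.

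In endothelial-like cells 6 of the 10 genes were tested and none was called by edgeR, where 0.491% of all genes were called (0.157% higher and 0.334% lower). At an unadjusted p under 0.05 there were 2 of the 6, and 13.8% of all genes. DESeq2 and limma also called none. Igfbp4 was at 1378, 1458 and 1737 CPM in vehicle and at 1786, 1912 and 1987 CPM in ginkgetin. These values did not overlap, but the fitted log2 fold change was 0.16 ± 0.22 (edgeR adjusted p = 0.839). Igf1r was at 92.3, 97.4 and 170.3 CPM against 98.0, 96.5 and 145 CPM, in which replicate 3 was the highest of either group (−0.23 ± 0.19, edgeR adjusted p = 0.691). Igfbp7 was at 5874, 5575 and 2568 CPM in vehicle and at 3967, 3709 and 2139 CPM in ginkgetin: replicate 3 was lowest in both groups, and the ginkgetin level was lower within replicates 1 and 2 (log2 ratio of means −0.58) and within replicate 3 (−0.26). Its fitted log2 fold change was −0.70 ± 0.54 (edgeR adjusted p = 0.660).

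Igfbp5 and Igf1 had the largest fitted changes in endothelial-like cells among the 6 genes tested. The class was not made up alike across replicates: in replicates 1 and 2 the cluster led by Edn1 and Vwf stayed unnamed and was not counted. In replicate 3 a cluster with Vwf among its leading genes was counted in the class. Igfbp5 was at 111, 47.2 and 254 CPM in vehicle and at 4.92, 8.09 and 74.8 CPM in ginkgetin, where ginkgetin replicate 3 exceeded vehicle replicate 2 (−2.44 ± 1.01, edgeR adjusted p = 0.361), and leaving out 1 library moved the log2 fold change between −1.86 and −4.32, the latter without ginkgetin replicate 3. With the replicate block the log2 fold change was −2.77 (edgeR adjusted p = 0.00685), a call, where 4.36% of all genes were called with that block. Igf1 was at 12.5, 14.5 and 7.47 CPM in vehicle and at 1.40, 7.18 and 2.18 CPM in ginkgetin (−1.77 ± 0.69, edgeR adjusted p = 0.333), and without 1 library between −1.35 and −2.89, the latter without ginkgetin replicate 2. With the replicate block it was called too (−1.92, edgeR adjusted p = 0.0203). Over all alternatives the edgeR, DESeq2 or limma adjusted p ranged from 0.00311 to 0.716 for Igfbp5 and from 0.0203 to 0.688 for Igf1. The summed level of 9 macrophage markers in endothelial-like cells, 409, 368 and 209.7 CPM in vehicle and 58.3, 171 and 73.7 CPM in ginkgetin, moved with Igf1, and its part in that result was not tested.

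Endothelial-like cells of the groups came from different clusters, and Igfbp5 and Igfbp7 differed among these. The cluster led by Fabp4 and Lyve1 held 1044 and 455 cells of vehicle replicates 1 and 2, with Igfbp5 at 113 and 50.1 CPM and Igfbp7 at 5882 and 5606 CPM. The cluster led by Ehd3 held 903 and 2327 cells of ginkgetin replicates 1 and 2, with Igfbp5 at 1.98 and 10.3 CPM and Igfbp7 at 3816 and 3641 CPM. The cluster led by Wnt2 and Kit, genes of central-vein endothelium, held 287 and 630 cells of the same libraries, with Igf1r at 63.9 and 77.7 CPM where the Ehd3 cluster had 111 and 101 CPM. Of the 6 clusters plotted, a pair with Vwf, Fbln2 and Adgrg6 among their leading genes had the most Igfbp5. In replicates 1 and 2 an unnamed cluster led by Edn1 and Vwf held Igfbp5 at 923 and 467 CPM in vehicle and 407 and 227 CPM in ginkgetin. Igfbp7 was itself among the 10 leading genes of the Fabp4 cluster, so its level there describes that cluster. In replicate 3 a cluster led by Cavin2, Cebpd and Ednrb held Igfbp5 at 265 CPM in vehicle and 517 CPM in ginkgetin, and made up 374 of the 406 endothelial-like cells of vehicle and 135 of the 1135 of ginkgetin. The makeup of that cluster differed between them. Clustered within the class, vehicle replicate 3 had 353 cells in a part led by Cebpd and Ifi207 and 42 in a part led by Nrg1, Fbln2 and Vwf, where ginkgetin replicate 3 had 7 and 127.

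**Figure D4:**
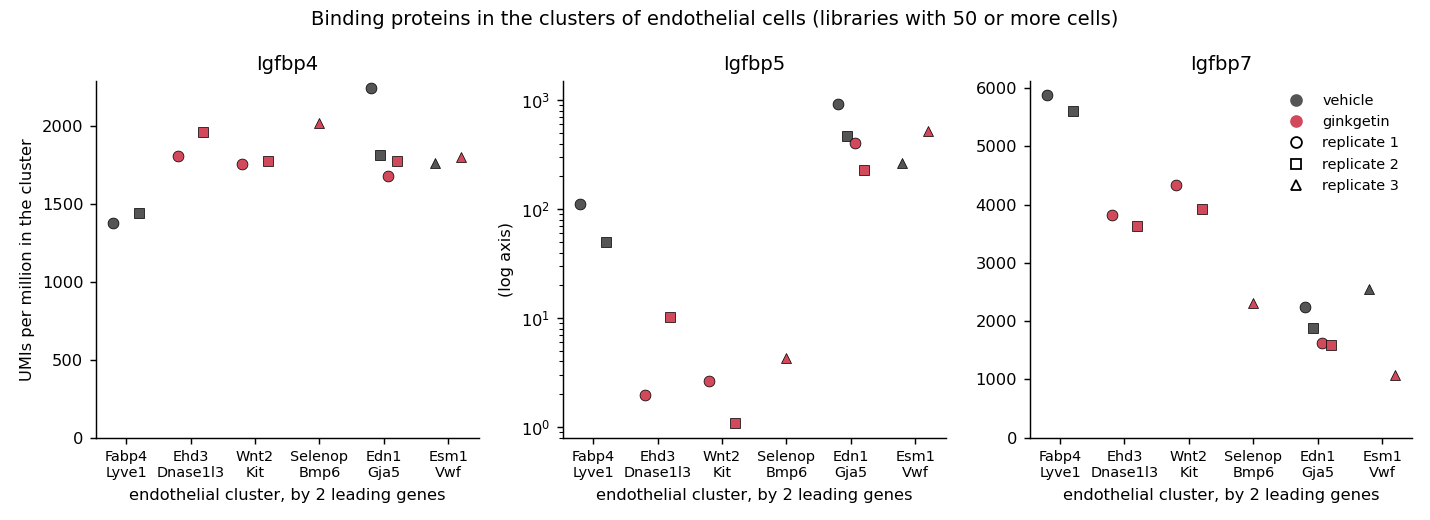
Level of Igfbp4, Igfbp5 (log axis) and Igfbp7 in 6 clusters of endothelial cells, in CPM, each point 1 library with at least 50 cells there, colour the group and symbol the replicate. Igfbp5 is at 227 or more in every point of the Edn1/Gja5 and Esm1/Vwf clusters on the right and at most 113 elsewhere.

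Stellate-like cells, the pericytes of the sinusoid and the main fibrogenic cells of liver, were scarce: 6, 24 and 38 in vehicle and 12, 65 and 36 in ginkgetin. Vehicle replicate 1, under 10 cells, was left out of the fit, which compared 2 libraries with 3. Of the 10 genes 6 were tested and edgeR called none, where 0.0194% of all genes were called. At an unadjusted p under 0.05 there was 1 of the 6, and 6.83% of all genes. DESeq2 and limma also called none. In the left-out vehicle replicate 1 Igf1 had 0 UMIs, which allows up to 44.2 CPM. In the libraries fitted Igf1 was at 114 and 132 CPM in vehicle, from 19 and 57 UMIs, and at 37.7, 3.49 and 6.35 CPM in ginkgetin, from 2, 1 and 2 UMIs, without overlap. Its log2 fold change was −3.87 ± 0.68 (edgeR adjusted p = 0.264), and −4.55 with the replicate block, a call that rests on 1 residual degree of freedom (edgeR adjusted p = 2.16e-10), where 3.39% of all genes were called with that block. It was also called with the barcode-set block (−3.96, edgeR adjusted p = 6.30e-05) and with no filter on low counts (−3.91, edgeR adjusted p = 6.33e-06). DESeq2 gave it no adjusted p. With all barcodes kept and clustered again it was −0.56 (edgeR adjusted p = 0.865). The summed level of 7 fibroblast markers in these cells was 1575 and 3880.1 CPM in the vehicle libraries fitted and 472, 331 and 318 CPM in ginkgetin, and its part in the Igf1 result was not tested. In the left-out vehicle replicate 1 that sum was 1562 CPM. In fibroblast-like cells themselves, which were not tested, Igf1 was at 120, 274 and 284 CPM in vehicle and at 55.6 and 510.1 CPM in ginkgetin replicates 1 and 3.

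Without a block, edgeR called none of the binding proteins of stellate-like cells. Igfbp7 was at 13243 and 14589 CPM in vehicle and at 10242, 8034 and 5189.8 CPM in ginkgetin, without overlap (−0.89 ± 0.44, edgeR adjusted p = 0.771). Igfbp3 overlapped between the groups (−0.30 ± 0.50, edgeR adjusted p = 0.962), as did Igfbp4, at 569 and 987 CPM against 547, 645 and 591 CPM (−0.44 ± 0.41, edgeR adjusted p = 0.910). Igf1r was at 83.9 and 60.3 CPM in vehicle and at 94.3, 97.7 and 165 CPM in ginkgetin (0.74 ± 0.42, edgeR adjusted p = 0.794). Igfbp5 was at 0 and 44.0 CPM against 0, 6.98 and 190.6 CPM, the zeros allowing up to 18.0 and 56.6 CPM, so replicate 3 was the highest in each group (1.49 ± 1.35, edgeR adjusted p = 0.910). Leaving out 1 library moved its log2 fold change between 0.74 and 6.98. With the replicate block it was 2.08, a call that rests on 1 residual degree of freedom (edgeR adjusted p = 0.00326).

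In cholangiocyte-like cells, the lining of the bile ducts, 5 of the 10 genes were tested and edgeR called none, where 0.176% of all genes were called (0.138% higher and 0.0378% lower). At an unadjusted p under 0.05 there was 1 of the 5, and 12.9% of all genes. DESeq2 and limma also called none. Igf1r was at 45.6, 70.3 and 79.3 CPM in vehicle and at 132, 85.9 and 207 CPM in ginkgetin, without overlap and from 52 to 141 UMIs per library. Its log2 fold change was 1.12 ± 0.33 (edgeR adjusted p = 0.237), and with the replicate block 1.08, a call (edgeR adjusted p = 0.0168), where 2.45% of all genes were called with that block. The summed level of the 7 cholangiocyte markers, given above, did not overlap between the groups and had its lower values in ginkgetin, and its part in the Igf1r values was not tested. The 8 endothelial markers in these cells summed to 56.4, 62.9 and 104 CPM in vehicle and 200.2, 846 and 166 CPM in ginkgetin, or 0.636% to 6.09% of the endothelial-like level, while Igf1r was at 46.6% to 143% of it. Igfbp7 was at 1498, 1207 and 1603 CPM against 1098, 1155 and 729 CPM, without overlap (−0.50 ± 0.29, edgeR adjusted p = 0.490), and Igf1 at 127, 88.8 and 137 CPM against 82.0, 72.3 and 101 CPM, with overlap (−0.46 ± 0.24, edgeR adjusted p = 0.442). The 8 hepatocyte markers in these cells summed to 13683, 13099 and 6093 CPM in vehicle and 9934, 9112 and 5771 CPM in ginkgetin, lower within each replicate number as Igf1 was, and their part in the Igf1 values was not tested.

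In hepatocyte-like cells the fit compared 3 vehicle libraries with ginkgetin replicates 2 and 3, which held 12 and 174 cells. Of 4 genes tested edgeR called none, with 2 at an unadjusted p under 0.05, and 0.0% of all 4103 genes were called (604 at an unadjusted p under 0.05). DESeq2 and limma also called none of the 4. Igfbp4 was at 333, 308 and 416 CPM in vehicle and at 874 and 608 CPM in ginkgetin (0.90 ± 0.31, edgeR adjusted p = 0.298). Leaving out 1 library moved its log2 fold change between 0.41 and 1.13. Igfbp7 was at 117, 29.7 and 51.7 CPM against 753 and 173 CPM (2.61 ± 0.80, edgeR adjusted p = 0.275), and with the replicate block, which left 1 residual degree of freedom, it was called (2.90, edgeR adjusted p = 7.96e-06), where 4.29% of all genes were called with that block. It was also called with the barcode-set block (2.52, edgeR adjusted p = 0.0123) and with no filter on low counts (2.09, edgeR adjusted p = 0.0163). Without ginkgetin replicate 2 the log2 fold change was 1.06, in a range of 1.06 to 3.34 with 1 library left out. Endothelial markers in these cells summed to 202, 37.6 and 215 CPM in vehicle and 2113 and 1232 CPM in ginkgetin, and their part was not tested. Igf1 (−0.55 ± 0.40, edgeR adjusted p = 0.520) and Igfbp2 (−0.30 ± 0.54, edgeR adjusted p = 0.939) were not called.

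**Figure D5:**
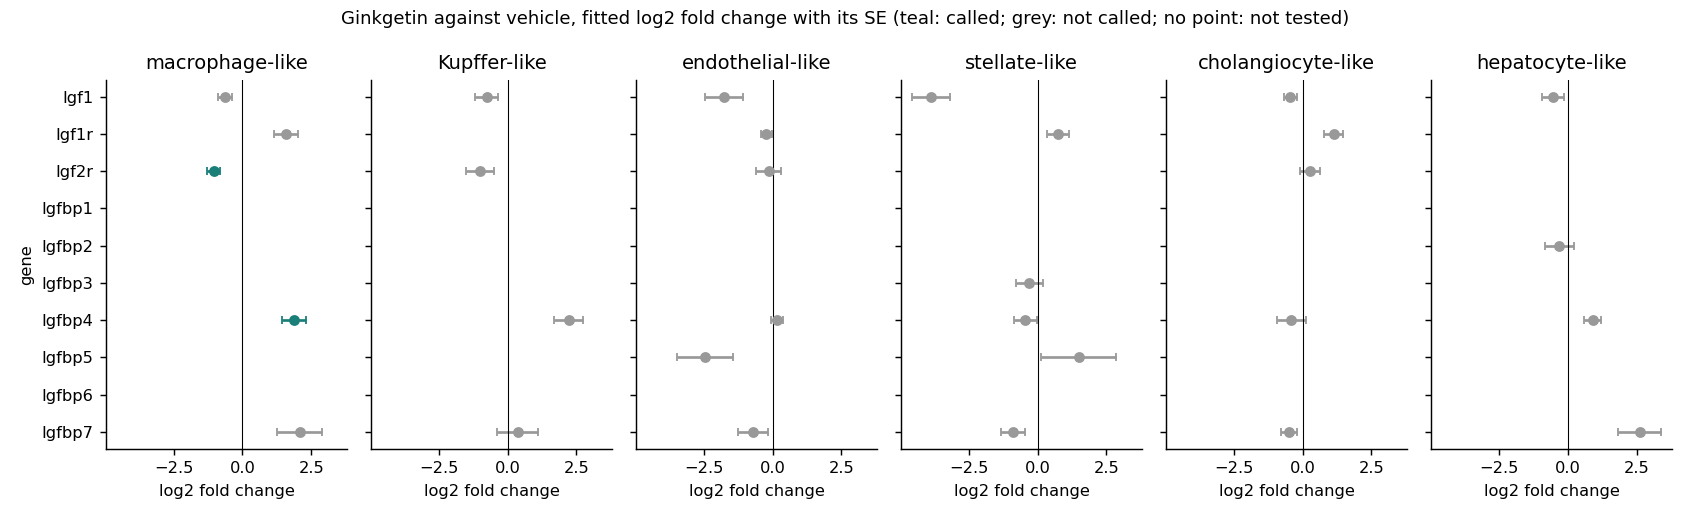
Fitted log2 fold change of ginkgetin against vehicle (horizontal) with its standard error for each gene (vertical) in 6 cell classes (panels), teal where called and grey where not, with no point where counts were too few. The 2 called values are Igf2r (−1.05) and Igfbp4 (1.87) in macrophage-like cells.

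Whether the change with ginkgetin differed between classes was tested for 6 pairs among macrophage-like, endothelial-like, stellate-like and cholangiocyte-like cells. None of the 39 gene-by-pair tests was called by edgeR at an adjusted p under 0.05 with no fold limit. At an unadjusted p under 0.05 there were 15 of them, and 8.71% of the 59693 tests of all genes. The nearest was Igf1r, whose log2 fold change was greater by 1.80 in macrophage-like than in endothelial-like cells (edgeR adjusted p = 0.0631), where 1.94% of all genes were called. In the other pairs 0.546% (macrophage-like against cholangiocyte-like), 0.0635% (macrophage-like against stellate-like), 0.0742% (endothelial-like against cholangiocyte-like), 0.0093% (endothelial-like against stellate-like) and 0.0% (stellate-like against cholangiocyte-like) were called. With the replicate block 10 of the 39 were called, and 2.35% of the tests of all genes. Both classes of a pair come from the same libraries, which this fit treated as separate samples.

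Of 47 other genes of the axis, in 4 lists, 34 were tested in macrophage-like, 33 in Kupffer-like, 38 in endothelial-like, 30 in cholangiocyte-like, 17 in stellate-like and 13 in hepatocyte-like cells. Only Ctsd, the lysosomal aspartic protease cathepsin D, which can cut binding proteins and is carried by IGF2R, was called, and in macrophage-like cells alone: 1 of 34 there, where 8.3% of all genes were called. It was lower in ginkgetin (log2 fold change −1.69 ± 0.27, edgeR adjusted p = 0.0214), while its value in Kupffer-like cells missed the call (−1.72 ± 0.42, edgeR adjusted p = 0.243) and was called with the replicate block (−1.78, edgeR adjusted p = 0.00194). In macrophage-like cells, leaving out 1 library kept the Ctsd log2 fold change between −1.84 and −1.56, with edgeR adjusted p between 0.0424 and 0.154. The Ctsd call ended for every library other than vehicle replicate 3, in fits that called 0 of all genes. Without the part led by endothelial genes Ctsd was not called either (−1.71, edgeR adjusted p = 0.152), where 0.103% of all genes were called. Of 23 receptor signalling genes, 20 were tested in macrophage-like cells and none was called, with a median log2 fold change of 0.38 where that of all genes was 0.02. The 7 mannose phosphate sorting genes were all tested there with a median of −0.34, the 5 tested of 8 growth hormone and ligand genes had a median of 0.60, and the 2 tested of 9 proteolysis genes a median of −0.85. In endothelial-like cells the medians of the 4 lists lay between −0.03 and 0.28. In these cells Ghr, the growth hormone receptor, was not called at −0.77 ± 0.25 (edgeR adjusted p = 0.248).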

How the data were processed

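The authors deposited raw counts of UMIs per gene and cell for 6 libraries of mouse liver cells, 3 vehicle and 3 ginkgetin, made with the 10x Genomics platform. The build named in the submitters' processing notes is GRCm38 (mm10); the aligner, counter and annotation are not given in the sources used here. The labels' extraction text also describes a bulk-type kit. The stated filter of 250 to 5000 UMIs was read as genes detected, with under 5% mitochondrial UMIs, which kept 27544 barcodes (16821 when read as UMIs). The members, gene lists and markers were chosen with earlier results of these data known.

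Cells were clustered in scanpy 1.11.5 (each cell brought to 10000 UMIs, natural log, 2000 variable genes without the members and pathway genes, 30 components, 15 neighbours, Leiden resolution 1, leidenalg 0.10.2, seed 1; python 3.11.15). Libraries were not integrated. Clusters were named "-like" from at least 3 markers found in 25% of cells at 2 times the rest (pseudocount 0.1); clusters and parts of clusters led by markers of another class, and clusters led by cell-cycle genes, stayed unnamed. Doublets were not removed, since Scrublet called at most 0.192% of a library and so did not work. UMIs were summed per class and library with at least 10 cells and given as CPM of that sum. Tests used edgeR 4.0.16 (filterByExpr, TMM, quasi-likelihood, R 4.3.3) with Benjamini-Hochberg adjustment over all genes tested, and were checked on simulated data. A call needed an adjusted p under 0.05 and a fold above 2. All 10 members were named, and pathway genes where called, plus Ghr, which was named after its value was seen. Alternatives were DESeq2 1.42.0, limma 3.58.1, other scaling, gene and cell filters, clustering and blocks, and each library left out; 5 were added after seeing the data (unnamed clusters with their nearest class, cells rich in other classes' markers left out, library totals without TMM, and the part of macrophage-like cells led by endothelial genes counted as Kupffer-like or left out).

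Replicate numbers recur in both groups. Same-numbered libraries deviated together from their group means, with correlations over genes of 0.43, 0.49 and 0.82 in macrophage-like and 0.70, 0.66 and 0.92 in endothelial-like cells, and the replicate block took the numbers as pairs. Replicates 1 and 2 correlated about as well across numbers as within them, so the pairing comes from the barcode set of replicate 3. Depth ranged from 13128697 to 61796882 UMIs per library.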

Additional observations from a re-analysis of the deposited data

How the results depend on the processing

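Of 579 values under alternatives for the 30 gene and class pairs tested, 564 kept the direction of the reported value. In macrophage-like cells, where 2 genes were called, 4 were called with DESeq2 (11.9% of all genes called), the replicate block (14.0%) and the barcode-set block (14.8%), 1 with limma (9.90%), with resolution 2 (10.5%), with the axis genes used in clustering (10.4%) and without the cells richest in other classes' markers (4.10%), and 0 with the UMI cell filter (3.20%), with no filter on low counts (2.498%) and without the part led by endothelial genes (0.103%). Where 2 were called under another setting they were not always the same genes: Igf1r took the place of Igf2r without TMM and with no cell filter, and Igfbp7 did in replicates 1 and 2 alone. In Kupffer-like cells, with 0 calls, 3 were called with the replicate block (9.25% of all genes), 2 with the barcode-set block (13.6%), 2 with the part led by endothelial genes counted (5.79%) and 1 with no cell filter (1.498%). Resolution 2, clustering with the axis genes and replicates 1 and 2 alone gave no value there, nor did the UMI filter in stellate-like and cholangiocyte-like cells, doublet scores in stellate-like cells, replicates 1 and 2 alone in stellate-like and hepatocyte-like cells, or leaving out marker-rich cells in hepatocyte-like cells. Where each group kept at least 2 libraries, leaving out each library in turn gave 0 to 1 calls in Kupffer-like cells, 0 to 0 in every other class and 0 to 0 interactions. The shares of all genes called were 0.764% to 28.0% in Kupffer-like, 0% to 6.76% in macrophage-like and 0% to 0.135% in endothelial-like cells. They were 0% to 0.152% in cholangiocyte-like cells, 0% in stellate-like and hepatocyte-like cells, and 0.00338% to 0.156% for interactions. In endothelial-like cells 2 genes were called with either block (4.36% and 4.60% of all genes), and Igfbp5 alone with the UMI filter (0.548%), in replicates 1 and 2 alone (3.52%) and at resolution 2 (0.783%), 1 call each. In stellate-like cells 2 were called with either block (3.39% and 3.06%) and 1 with no filter on low counts (0.724%), in cholangiocyte-like cells 1 with either block (2.45% and 2.52%), and in hepatocyte-like cells 1 with either block (4.29% and 3.24%) and 1 with no filter on low counts (1.44%). Of 39 interactions, 10 were called with the replicate block and 11 with the barcode-set block, against 2.35% and 2.48% of those of all genes. The blocks changed no other call of the 10 genes, and in Kupffer-like cells Ctsd was called with either. The cause of these shifts was not tested.

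Directions turned for Igfbp7 in Kupffer-like cells (−0.18 without vehicle replicate 3, in a range of −0.18 to 1.23 with 1 library left out), Igf2r in endothelial-like cells (0.09, 0.10 and 0.07 without ginkgetin replicate 1, vehicle replicate 1 and vehicle replicate 3, in a range of −0.47 to 0.10 with 1 library left out, and 0.020 without TMM), Igfbp3 in stellate-like cells (0.29 with no cell filter, 0.57 without vehicle replicate 2, in a range of −0.91 to 0.57), Igfbp4 in stellate-like cells (0.018 with no cell filter), Igfbp4 in cholangiocyte-like cells (0.23 in replicates 1 and 2 alone), Igf2r in cholangiocyte-like cells (−0.021 without ginkgetin replicate 3, −0.0012 without vehicle replicate 1, in a range of −0.021 to 0.62), Igf1 in hepatocyte-like cells (0.082 with no cell filter), and Igfbp2 in hepatocyte-like cells (0.036 with limma, 0.28 with no cell filter, 0.070 without vehicle replicate 3, in a range of −1.75 to 0.070), all log2 fold changes. The thinned share of macrophage-like cells with an Igf1 UMI, higher by 3.31 points, was lower by −17.3 points without thinning and by −1.14 points in replicates 1 and 2 alone. The Igf2r difference there moved from −0.81 to −16.2 points without thinning. The Igf1r difference in Kupffer-like cells, 0.345 points, was −0.153 in replicates 1 and 2 alone and −0.102 without ginkgetin replicate 3. Over fits without 1 library the share differences ran from 0.338 to 5.32 points for Igf1, −1.14 to −0.460 for Igf2r and 4.03 to 9.87 for Igfbp4 in macrophage-like cells, and −0.102 to 0.791 for Igf1r and 6.97 to 16.9 for Igfbp4 in Kupffer-like cells.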

Other observations

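Igfbp6 was also counted outside fibroblast-like cells. Monocyte-like cells carried 9.79% of its 2379 UMIs, at 13.9, 19.5 and 15.8 CPM in vehicle and at 0, 4.58 and 1.61 CPM in ginkgetin, where 0 UMIs allow up to 6.28 CPM. The groups did not overlap, but monocyte-like cells were chosen after their values were seen and no test was made of them. Natural killer cell-like cells held 2.70 to 12.7 CPM and macrophage-like cells at most 1.30 CPM.

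T cell-like cells carried 18.9% of the 3007 Igf2r UMIs, at 22.3, 15.8 and 36.7 CPM in vehicle and 24.2, 20.1 and 44.8 CPM in ginkgetin, with overlap. Replicate 3 was the highest in each group.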
